A study of Mus musculus with 6 samples.

Results

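Chemokine receptors and sphingosine 1-phosphate (S1P) receptors are the G protein-coupled receptors with which lymphocytes find their way between blood, lymphoid organs and inflamed tissue. The 9 members were taken by gene symbol from the platform annotation of the array: the chemokine receptors Cxcr3, Cxcr4, Cxcr6, Ccr2, Ccr7 and Cx3cr1 and the S1P receptors S1pr1, S1pr4 and S1pr5. Each was represented by 1 probe set, so that 9 of 19938 measured genes were members. None of their 9 probe sets was shared with another gene symbol. Their level was measured in natural killer (NK) cells of the spleen on 6 Affymetrix arrays.

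The arrays came from C57Bl/6 mice of 8 to 12 weeks, 3 with the label 15a/16-1FKO (the knockout in this text) and 3 with the label Ctrl (the control). In both genotypes the cells were sorted without culture, right after the spleen was taken, as YFP+, CD27+, NK1.1+ and CD3-. The YFP gate was therefore common to knockout and control cells, and the labels name neither the driver of recombination nor the alleles of the control mice. CD27 is carried by the less mature NK cells, so that the most mature, CD27-negative cells were not measured. The 3 arrays within a genotype are described by the submitters as technical replicates. Every p-value here weighs a difference against array-to-array spread, and that spread may be technical. Sex-linked transcripts, given below, differed between arrays of a genotype, unlike in repeats of a single RNA sample.

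A chemokine receptor couples to inhibitory G proteins and turns a gradient of its ligand into directed movement. S1P is abundant in blood and lymph and scarce within tissue, and cells that carry S1PR1 or S1PR5 follow it out of the organ. In NK cells S1PR5 is known for exit from bone marrow and lymph node, CXCR4 for retention in bone marrow, and CX3CR1 for the late stages of maturation. The question put to these data was whether the receptors differed in level when microRNA-15a and microRNA-16-1 were deleted.

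The mature sequences of the deleted microRNAs are shown first because they define the perturbation, with mmu-miR-15b-5p from the related cluster beside them. They are RefSeq sequences on GRCm38.p6, written 5′ to 3′ with the seed (bases 2 to 8) in capitals. Mir15a gives its 5p arm at chr14:61632075-61632096 on the minus strand, Mir16-1 at chr14:61631936-61631957 on the minus strand and Mir15b at chr3:69009775-69009796 on the plus strand.
mmu-miR-15a-5p: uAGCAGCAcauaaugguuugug
mmu-miR-16-5p: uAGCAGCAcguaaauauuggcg
mmu-miR-15b-5p: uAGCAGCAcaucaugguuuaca
All 3 share the seed AGCAGCA, and they differ in the bases after it. The same mmu-miR-16-5p sequence is also made from Mir16-2, which lies near Mir15b. The probe set of Mir15a, which detects the precursor gene, read 4.37, 3.53 and 3.43 in knockout arrays and 7.14, 6.02 and 6.69 in control arrays on the log2 scale. The genotypes did not overlap at this probe set, with a difference of -2.84 (SE 0.31, adjusted p = 0.0296, limma with Benjamini-Hochberg adjustment). The probe set of Mir16-1 read 2.61, 2.68 and 3.00 in knockout arrays and 3.19, 3.20 and 3.77 in control arrays, without overlap, but its mean lay under the background level described next. Its difference was -0.63 (SE 0.19) and did not pass the threshold (limma adjusted p = 0.999).

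Values are log2 expression after RMA, the normalization named by the submitters, so that a difference of 1 is a doubling. A probe set's level depends on its probes as well as on the RNA, and levels are therefore compared between arrays and not between receptors. Differences are knockout minus control, and in bulk samples fewer cells with a receptor and less RNA per cell cannot be told apart. All 9 receptors had a mean over 6 arrays above 4.13, the level under which 95% of 1027 olfactory receptor genes lay. Of all 19938 genes, 54.6% lay above that level. Ccr7, Cxcr6 and Cx3cr1 were the closest to it, at 1.08, 1.31 and 1.33 above it, and RMA compresses differences of dim probe sets.

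None of the 9 receptors passed the threshold of an adjusted p under 0.05 (limma), where 0.0201% of all genes did. The adjusted p was 0.999 for each of the 9. At an unadjusted p under 0.05, 1 of 9 differed, S1pr1, where 3.47% of all genes did. The differences of 6 receptors were positive and of 3 negative, with a median of 0.08, beside a median of -0.01 over all genes. In 8 of the 9 the arrays of the genotypes overlapped, where 8.33% of all genes had no overlap. Ccr2 was the exception, higher in all 3 knockout arrays, a pattern that 3.68% of all genes showed in that direction. For all 9 receptors, the range within at least 1 genotype was wider than the difference between the genotype means. The share of all genes with such a range was not counted, so whether this is particular to the receptors is not known.

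**Figure D1:**
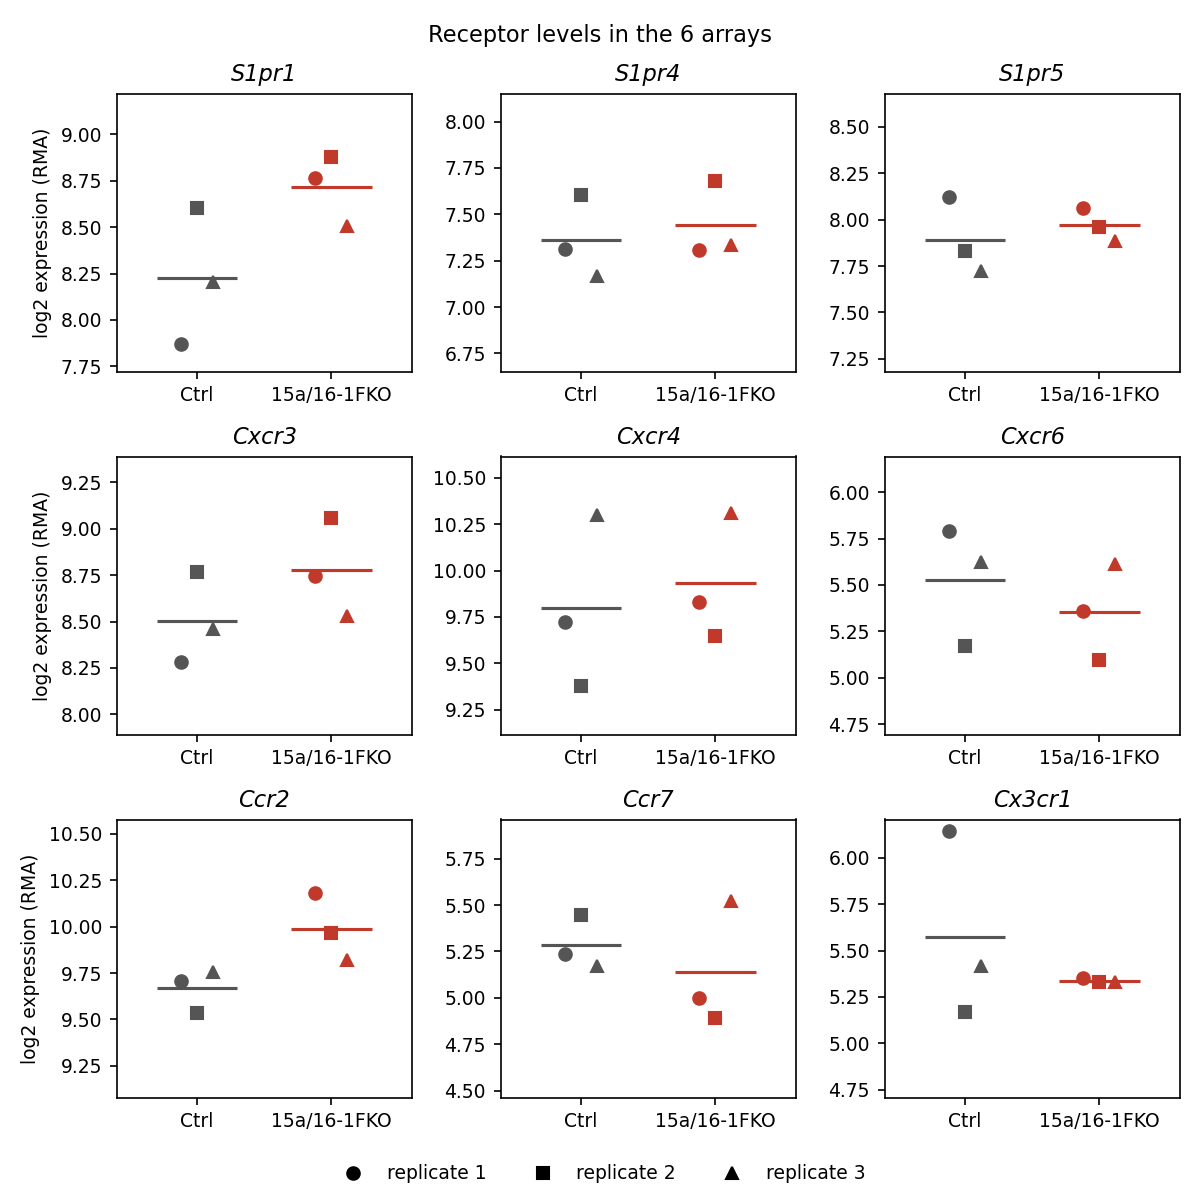
Log2 expression (vertical axis, RMA) of each receptor in the 3 Ctrl (grey) and 3 15a/16-1FKO (red) arrays, with the replicate number given by the symbol and the mean by a line; every panel spans the same height of 1.5 log2 units. The symbols of the genotypes overlap in height for every receptor but Ccr2, and Cx3cr1 shows 3 knockout arrays within 0.02 of each other beside a control array at 6.14.

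S1pr1 encodes the receptor that lymphocytes need to leave lymphoid organs along the S1P gradient. It had the largest difference of the 9. Its level was 8.76, 8.88 and 8.51 in knockout arrays and 7.87, 8.60 and 8.20 in control arrays. Control replicate 1 was the lowest of the 6, and control replicate 2 lay above knockout replicate 3, so that the genotypes overlapped. The means were 8.72 ± 0.19 and 8.23 ± 0.37 (mean ± SD, n = 3 arrays each). The difference was 0.49 (SE 0.20, 95% interval 0.05 to 0.94), or 1.41-fold with an interval of 1.03 to 1.91. The unadjusted p was 0.0339 and the adjusted p was 0.999 (limma). Without control replicate 1 the difference was 0.31 (limma unadjusted p = 0.137, adjusted p = 1.000), and without control replicate 2 it was 0.68 (unadjusted p = 0.00575, adjusted p = 0.999).

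S1pr5, the S1P receptor tied to the exit of NK cells themselves, read 8.06, 7.96 and 7.88 in knockout arrays and 8.12, 7.83 and 7.72 in control arrays. The knockout values lay inside the range of the control values. The difference was 0.08 (SE 0.15, 95% interval -0.26 to 0.41), which spans folds from 0.835 to 1.33. S1pr4, a lymphocyte S1P receptor, read 7.31, 7.68 and 7.34 in knockout arrays and 7.31, 7.61 and 7.17 in control arrays. In both genotypes replicate 2 was the highest array, and the other 4 arrays lay between 7.17 and 7.34. The difference of S1pr4 was 0.08 (SE 0.17, 95% interval -0.30 to 0.46). The sign of both genes turned when single arrays were left out. S1pr5 went to -0.0068 without control replicate 3. S1pr4 went to -0.040 without knockout replicate 2 and to -0.018 without control replicate 3.

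Ccr2, the receptor for the monocyte chemoattractants CCL2 and CCL7, read 10.18, 9.97 and 9.82 in knockout arrays and 9.71, 9.54 and 9.76 in control arrays. The lowest knockout array lay 0.06 above the highest control array. The means were 9.99 ± 0.18 and 9.67 ± 0.12 (mean ± SD, n = 3 arrays each). The difference was 0.32 (SE 0.15, 95% interval -0.01 to 0.65), or 1.25-fold, with an unadjusted p of 0.0571 and an adjusted p of 0.999 (limma). It lay between 0.23 and 0.41 when each array was left out in turn. Ccr2 lies in a cluster of related chemokine receptor genes, and probe sequences were not used here to check which of them its probes can bind.

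Cxcr3 encodes the receptor for the interferon-induced chemokines CXCL9, CXCL10 and CXCL11. Its level was 8.75, 9.06 and 8.53 in knockout arrays and 8.28, 8.77 and 8.46 in control arrays. All 3 knockout arrays lay above the control mean of 8.50, but control replicate 2 lay above 2 of them. The difference was 0.27 (SE 0.18, 95% interval -0.14 to 0.69, unadjusted p = 0.168 by limma, adjusted p = 0.999). It was 0.14 without knockout replicate 2 and 0.41 without control replicate 2.

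Cxcr4, whose ligand CXCL12 holds cells in bone marrow, varied more between arrays of a genotype than between genotypes. It read 9.83, 9.65 and 10.31 in knockout arrays and 9.72, 9.38 and 10.30 in control arrays. Replicate 3 was the highest and replicate 2 the lowest array in each genotype. The difference was 0.13 (SE 0.25, 95% interval -0.43 to 0.69), beside a range of 0.66 within the knockout and 0.92 within the control. The pooled SD within genotypes was 0.41, larger than that of 91.7% of the genes above background. The sign turned without knockout replicate 3 (-0.058) and without control replicate 2 (-0.077).

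Cxcr6, Ccr7 and Cx3cr1 had negative differences. Cxcr6, the receptor for CXCL16 and a marker of liver-resident lymphocytes, read 5.36, 5.10 and 5.61 in knockout arrays and 5.79, 5.17 and 5.62 in control arrays. Replicate 2 was the lowest array of each genotype, and the difference was -0.17 (SE 0.20, 95% interval -0.62 to 0.27). Ccr7 guides cells into lymph nodes toward CCL19 and CCL21. It read 4.999, 4.89 and 5.52 in knockout arrays and 5.23, 5.45 and 5.17 in control arrays. A single knockout array, replicate 3, lay above all the others, and the other 2 lay below every control array. The difference of Ccr7 was -0.15 (SE 0.19, 95% interval -0.56 to 0.27).

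Cx3cr1, the fractalkine receptor, read 5.35, 5.33 and 5.33 in knockout arrays and 6.14, 5.17 and 5.42 in control arrays. The 3 knockout arrays lay within 0.02 of each other, while the controls spanned 0.98 through control replicate 1 alone. The difference was -0.24 (SE 0.23, 95% interval -0.75 to 0.27, unadjusted p = 0.321 by limma, adjusted p = 0.999). Without control replicate 1 it was 0.046, so that 1 array set its sign.

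**Figure D2:**
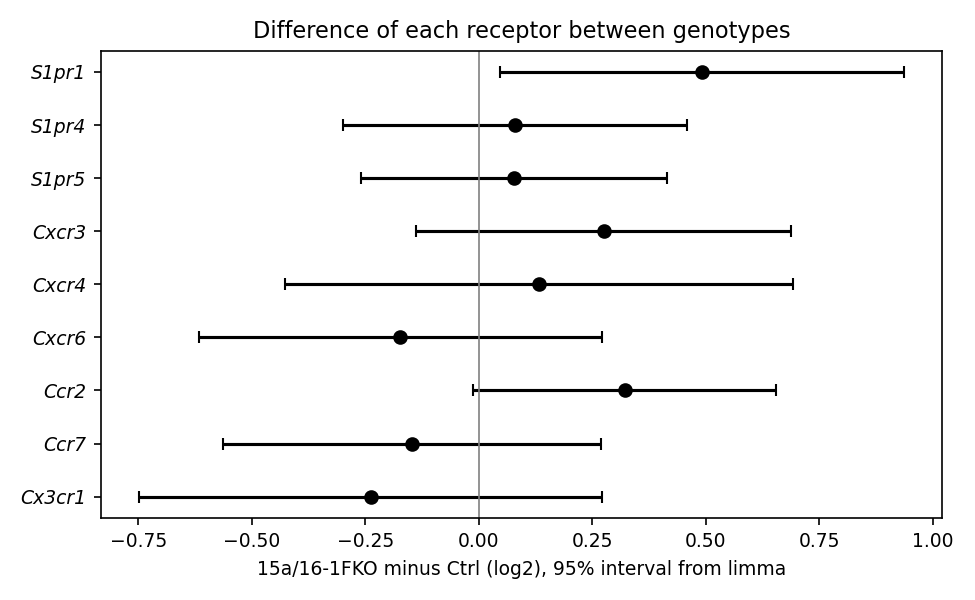
Difference of each receptor between genotypes (horizontal axis, 15a/16-1FKO minus Ctrl on the log2 scale; points) with its 95% interval from limma (bars), 3 arrays a genotype. The interval of S1pr1 lies above 0, from 0.05 to 0.94, before any adjustment for the number of genes, and the other 8 intervals include 0.

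The precision of these differences bounds what the arrays could show. The half-width of the 95% interval lay between 0.33 for Ccr2 and 0.56 for Cxcr4 on the log2 scale. A p that misses the threshold does not show that a receptor had the same level in both genotypes. The pooled SD of 6 of the 9 receptors exceeded 0.22, the median over the genes above background. Ccr2 and S1pr5 had the smallest, 0.15 and 0.16.

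Control replicate 1 stood out at several receptors. It was the lowest array for S1pr1 and Cxcr3 and the highest for Cxcr6, Cx3cr1 and S1pr5. The arrays also differed in sex-linked transcripts. Xist, expressed from the inactive X chromosome of females, read 7.56, 8.58 and 8.84 in knockout arrays and 9.65, 3.89 and 8.86 in control arrays. The mean of the Y-linked genes Eif2s3y, Kdm5d and Uty read 6.90, 5.47 and 4.80 in knockout arrays and 2.93, 6.75 and 5.21 in control arrays. Control replicate 1 thus had the highest Xist and the lowest Y-linked level, and control replicate 2 the lowest Xist. The arrays of a genotype therefore did not carry the same mixture of sex-linked transcripts. With Xist minus the Y-linked mean as a covariate, the difference of S1pr1 was 0.50 (SE 0.15, unadjusted p = 0.00947, adjusted p = 0.999, limma) and that of Cx3cr1 was -0.25.

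Markers of other cells that carry these receptors were measured beside them. All 13 NK cell markers lay above background, and the mean of the list lay between 10.2 and 10.4 in knockout and between 10.2 and 10.3 in control arrays. Monocytes carry Ccr2 and Cx3cr1, and 2 of 8 measured monocyte and macrophage markers, Lyz2 and Cd68, lay above background while Csf1r, Cd14 and Adgre1 did not. The mean of that list was 3.71 to 3.90 in knockout and 3.81 to 3.85 in control arrays. Dendritic cells carry Ccr7 and Cx3cr1, and 2 of 8 of their markers, Itgax and Zbtb46, lay above background while Flt3, Clec9a and Siglech did not. Itgax is also expressed by NK cells. The mean of the dendritic cell list was 4.07 to 4.29 in knockout and 4.17 to 4.44 in control arrays, highest in control replicate 1, the array with the highest Cx3cr1. Itgax itself was not high there, at 8.93 beside 9.37 and 8.91 in the other controls. The erythroid and platelet lists were also highest in control replicate 1, at 4.15 and 3.76. The part of such cells in the level of Cx3cr1 was not tested.

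Of T cell markers, 5 of 10 lay above background, Cd28, Lat and the CD3 chains Cd3d, Cd3e and Cd3g. Cd4, Cd5, Cd6, Cd8a and Cd8b1 did not. The mean of the list was 5.37 to 5.63 in knockout and 5.45 to 5.52 in control arrays. Cd28, a costimulatory receptor of T cells, read 8.50, 8.48 and 8.31 in knockout arrays and 8.14, 7.91 and 7.94 in control arrays. The knockout arrays lay above all control arrays, as in 3.68% of all genes. The difference of Cd28 was 0.43 (SE 0.14, limma unadjusted p = 0.0117, adjusted p = 0.999). Of B cell markers, 3 of 7 lay above background (mean of the list 3.73 to 4.02 in knockout, 3.66 to 4.20 in control), and Ms4a1 and Cd79a did not. Of neutrophil markers, 4 of 8 did (4.14 to 4.48 and 4.20 to 4.36), among them S100a8 but not Ly6g. S100a8 differed by 0.77 (SE 0.32, limma unadjusted p = 0.0407, adjusted p = 0.999), with overlap between the genotypes. The median difference was 0.07 over the T cell list and 0.03 over the neutrophil list. Members of both lists also went the other way, such as Cd3e at -0.19, Elane at -0.10 and the dim neutrophil marker Cxcr2 at -0.55. S100a9, of the neutrophil list, differed by 0.18 (SE 0.49). In other lists, the dim H2-Ab1 differed by -0.58 (limma unadjusted p = 0.0159) and the dim Gp5 by -0.36 (limma unadjusted p = 0.0228). The part of T cells or neutrophils in the differences of Ccr2 and S1pr1 was not tested. Of erythroid markers, 1 of 3 lay above background (3.63 to 3.98 and 3.80 to 4.15), and of platelet markers 2 of 5 (3.56 to 3.72 and 3.64 to 3.76). No marker of these lists passed the threshold (limma).

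The other receptors of both families were mostly at background. Of 16 other chemokine receptors measured, 2 lay above the olfactory receptor level, Ccr10 and the atypical receptor Ccrl2. None of the 16 passed the threshold in either direction, and their median difference was -0.06, with 6 positive and 10 negative. The smallest p-values belonged to the neutrophil receptor Cxcr2 at -0.55 (SE 0.28), the inflammatory receptor Ccr1 at -0.28 (SE 0.15) and the CXCL12 scavenger Ackr3 at -0.16 (SE 0.14), all dim. S1pr2, an S1P receptor that restrains migration, lay above background (knockout mean 5.23 ± 0.20 SD, control mean 5.27 ± 0.13 SD, n = 3 arrays each), with a difference of -0.04 (SE 0.15). S1pr3 was dim, with a difference of -0.19 (SE 0.16). Neither passed.

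The ligands were measured only as far as the sorted cells make them, not in the tissue the cells came from. Of 11 measured chemokines that bind the 6 chemokine receptors, 3 lay above background and none passed the threshold in either direction (median -0.08, 3 positive, 8 negative). Cxcl16, the ligand of CXCR6, was lower in all 3 knockout arrays at a dim level, with a difference of -0.26 (SE 0.13). Arrays did not overlap in that direction in 4.65% of all genes. The CXCR3 ligand Cxcl10 differed by -0.36 (SE 0.27) and the CCR2 ligand Ccl7 by -0.15 (SE 0.14).

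Of 10 genes that make, break down or export S1P, 6 lay above background and none passed in either direction (median 0.02, 6 positive, 4 negative). The phosphatase Sgpp2, which was dim, differed by -0.18 (SE 0.16). The kinases that make S1P differed by 0.20 (SE 0.21) for Sphk2 and -0.14 (SE 0.16) for Sphk1. The 21 genes of signalling below the receptors all lay above background, and none passed (median 0.00, 10 positive, 11 negative). Gnai3, an inhibitory G protein alpha subunit, differed by 0.27 (SE 0.16) and the lipid kinase subunit Pik3cg by 0.23 (SE 0.14). Each was higher in all 3 knockout arrays, as were 3.68% of all genes. The actin regulator Was differed by -0.22 (SE 0.13) and was lower in all 3, as were 4.65% of all genes.

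Arrestins, receptor kinases and RGS proteins end receptor signalling. Of 12 measured, none passed (median -0.02, 4 positive, 8 negative). The arrestin Arrb1 differed by -0.15 (SE 0.17), Rgs2 by -0.23 (SE 0.27) and Rgs16 by -0.08 (SE 0.14).

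Of 7 genes known to control the members, none passed (median -0.03, 3 positive, 4 negative). Klf2, the transcription factor that activates S1pr1, read 7.45, 7.48 and 7.50 in knockout arrays and 7.59, 7.54 and 7.56 in control arrays. The knockout arrays lay below all control arrays, as in 4.65% of all genes. The difference was small, -0.08 (SE 0.13 from limma, 95% interval -0.37 to 0.20). The part of Klf2 in the difference of S1pr1 was not tested. Foxo1, which acts upstream of Klf2, differed by 0.25 (SE 0.19), and the T-box factor Eomes by 0.20 (SE 0.16). Tbx21, which activates Cxcr3 and S1pr5, had a difference of -0.03 (SE 0.18), and Zeb2, which acts with it in maturation, one of 0.01 (SE 0.18). Cd69, whose protein removes S1PR1 from the cell surface, differed by -0.05 (SE 0.16). Surface protein was not measured here.

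**Figure D3:**
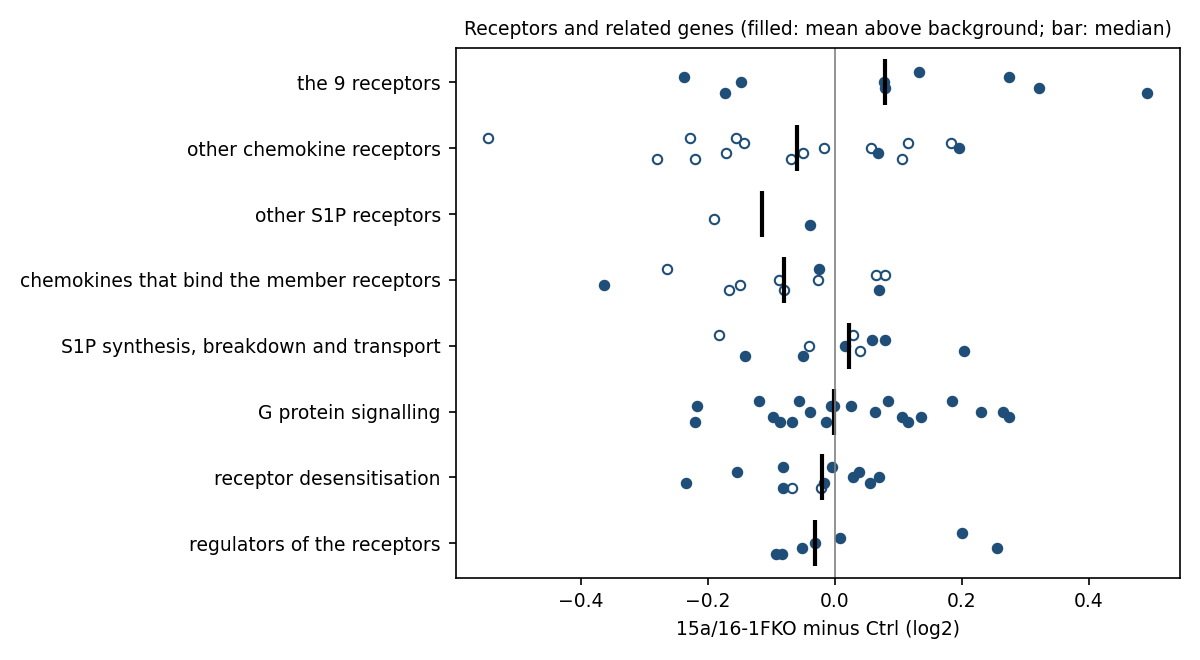
Differences between genotypes (horizontal axis, 15a/16-1FKO minus Ctrl on the log2 scale) of the 9 receptors and of 7 lists of related genes; each point is a gene, filled where its mean lies above the olfactory receptor level, and the bar is the median of the list. The receptors span -0.24 to 0.49 with a median of 0.08, and the widest difference among the related genes, -0.55 for Cxcr2, belongs to a dim gene.

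Patterns over the 6 arrays were compared with those of the other 10891 genes above background, by the root mean square distance between deviations from each gene's own mean. This was done for the 3 receptors with the widest range, S1pr1 (1.01), Cx3cr1 (0.98) and Cxcr4 (0.93). Closest to S1pr1 were Vwa5a at a distance of 0.05 on the log2 scale, Prrg4 at 0.07 and the zinc finger gene Zfp592 at 0.09. All 3 shared the low value of control replicate 1, and Vwa5a had a difference of 0.50 between genotypes. Closest to Cx3cr1 were Selenok-ps1 at 0.05, the microRNA precursor Mir598 at 0.10 and the mitochondrial phosphatase Pgam5 at 0.10, which all had control replicate 1 as the highest array. Closest to Cxcr4 were the Polycomb gene Bmi1 at 0.08, the spindle gene Spdl1 at 0.10 and Hrc at 0.11, with replicate 3 highest in each genotype. With 6 arrays and 10891 genes, such neighbours are a description of these arrays. They were chosen on the same 6 values, so their shared high and low arrays and similar differences follow from that choice.

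Promoters were examined because c-Myb, a transcription factor, is the target in the title of the study. The RefSeq table on GRCm38.p6 held promoters (300 bases, of which 250 before the start) of 7 members. It held none of S1pr1 or Ccr7, so no motif was counted for them. Ccr2 and Cxcr3 are printed, the chemokine receptors with the largest positive differences, 5′ to 3′ on the strand of the gene. Capitals mark matches on either strand to the MYB core motif AACNG. The window of Ccr2 is chr9:124101933-124102232 on the plus strand and that of Cxcr3 is chrX:101734098-101734397 on the minus strand.
Ccr2: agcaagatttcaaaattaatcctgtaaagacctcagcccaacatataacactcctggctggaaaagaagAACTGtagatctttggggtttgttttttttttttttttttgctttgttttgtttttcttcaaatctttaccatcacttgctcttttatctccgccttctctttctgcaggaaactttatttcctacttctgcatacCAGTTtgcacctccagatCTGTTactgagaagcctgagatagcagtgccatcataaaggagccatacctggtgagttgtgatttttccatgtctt
Cxcr3: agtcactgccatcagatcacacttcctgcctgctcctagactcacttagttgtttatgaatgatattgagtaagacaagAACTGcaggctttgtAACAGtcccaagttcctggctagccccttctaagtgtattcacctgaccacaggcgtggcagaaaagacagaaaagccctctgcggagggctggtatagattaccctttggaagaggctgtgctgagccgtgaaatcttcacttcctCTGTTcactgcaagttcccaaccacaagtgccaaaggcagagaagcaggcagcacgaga
Each of these promoters held 3 matches, beside a mean of 1.77 over all promoters. Cxcr4 also had 3, Cx3cr1 2, Cxcr6 1, S1pr4 1 and S1pr5 0, so that 6 of 7 member promoters held at least 1 match, beside 80.3% of 32851 promoters of the same length. The KLF core CACCC occurred in 4 of 7, Cxcr4, Cx3cr1, S1pr4 and S1pr5, beside 57.5% of all promoters. The T-box motif AGGTGTNA occurred in 0 of 7, beside 3.03% of all promoters. Both strands were searched for each motif, and a match describes the letters of the window and not binding.

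**Figure D4:**
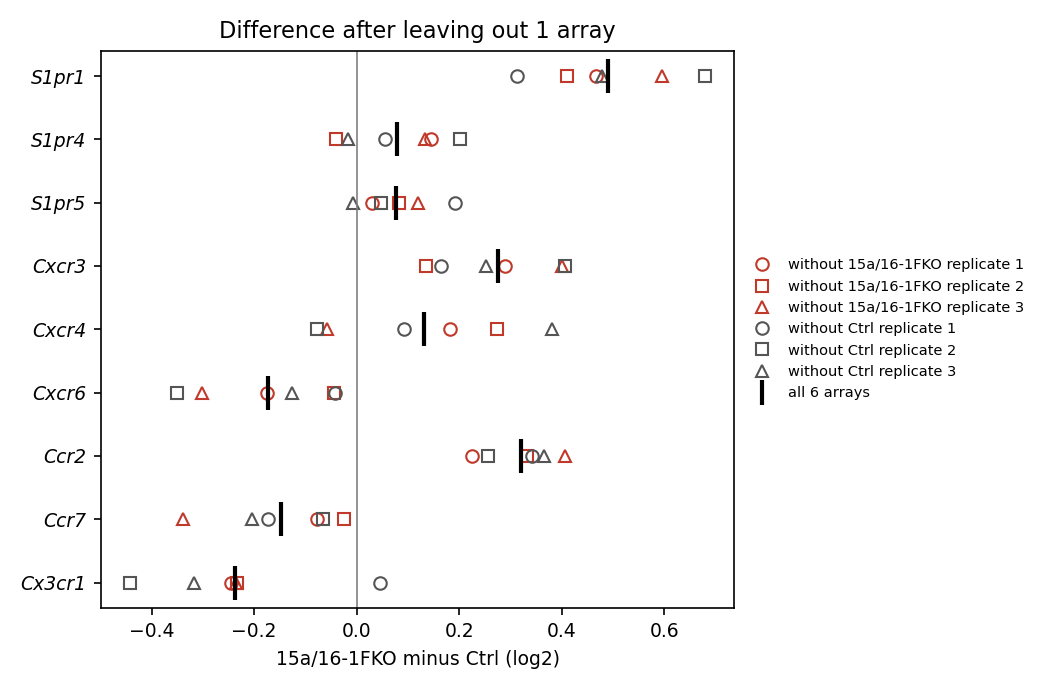
Difference of each receptor (horizontal axis, 15a/16-1FKO minus Ctrl on the log2 scale) with all 6 arrays (bar) and after leaving out each array (open symbols, red for a 15a/16-1FKO array and grey for a Ctrl array, shape for the replicate number). S1pr1, Ccr2 and Cxcr3 stay above 0 and Cxcr6 and Ccr7 below 0 in all 6 fits, while the other 4 receptors cross 0 in at least 1.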

How the data were processed

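The authors deposited 1 table of log2 values for 35556 probe sets and 6 arrays, with RMA and Partek 6.6 named in the submitters' processing notes. RMA subtracts background, quantile-normalizes and summarises probes. The array's genome build was not given in the sources used here; scanner files and detection calls were not used. Arrays carry no read depth, and their number limits the precision.

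Probe sets with 1 gene symbol in GEO's platform annotation (21789) were reduced to the brightest of each gene, giving 19938 genes, with no filter. Genotypes were compared over all of them with limma 3.58.1 in R 4.3.3 (lmFit, eBayes, two-sided, genotype as the only term), with Benjamini-Hochberg adjustment over 19938 genes, and the script was tested on simulated data. Members, lists and motifs were chosen with earlier results of these data known. Named were the 9 members, the 3 genes of each related list with the smallest p, and the 3 nearest patterns of the 3 members with the widest range. Other list members, marker genes and the sex-linked genes were named after their values were seen. Alternatives covered centring, normalization, brightness, replicate number, prior, weights, single arrays, probe sets and a sex-linked covariate.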

Additional observations from a re-analysis of the deposited data

How the results depend on the processing

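Of 144 refits of the 9 receptors under 16 alternatives, 0 passed the adjusted threshold (limma, lowest adjusted p = 0.991), and 6 changed sign, all 6 among the 54 refits that left out 1 array. The alternatives of brightness, replicate number, prior and probe sets left each receptor's difference unchanged by construction, so they could not change a sign. Leaving out each array in turn gave differences from -0.077 to 0.38 for Cxcr4, -0.44 to 0.046 for Cx3cr1, -0.040 to 0.20 for S1pr4 and -0.0068 to 0.19 for S1pr5, which crossed 0. It gave 0.31 to 0.68 for S1pr1, 0.23 to 0.41 for Ccr2, 0.14 to 0.41 for Cxcr3, -0.35 to -0.042 for Cxcr6 and -0.34 to -0.025 for Ccr7. Over all genes 4 passed with all 6 arrays, and 2 to 3 when an array was left out. The only one of the 4 that was lower in the knockout was Mir15a. No gene passed as lower without knockout replicate 2 or 3, or without control replicate 1 or 3, so Mir15a lost its call there. The same held with the sex-linked covariate and when every probe set was tested. With the sex-linked covariate 2 passed, and when every probe set was tested 0 passed by limma, where 1214 had an unadjusted p under 0.05; the cause was not tested. Same-numbered arrays deviated together with r of 0.05, 0.15 and 0.14 over genes. Each array correlated best with the array of its own number in the other genotype, a hint from the data and not the design. Replicate 1 was a near tie at 0.048. Knockout replicate 1 had 0.042 with control replicate 2, and knockout replicate 3 had 0.045 with control replicate 1. With the replicate block 3 genes passed, and S1pr1 had a difference of 0.49 (SE 0.17, limma unadjusted p = 0.0197, adjusted p = 0.999). It ended the call of no receptor, since none passed without it. The number of arrays limits the precision, and Cxcr6, Ccr7 and Cx3cr1 lie nearest to background.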
